A study of Mus musculus with 24 samples.

Results

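Expression of 7 genes of the p53 and senescence response was followed in inguinal white fat, the subcutaneous depot of the groin. They were Cdkn1a, Cdkn2a, Gdf15, Mdm2, Ccng1, Phlda3 and Trp53inp1, identified by gene symbol and chosen with earlier results of these data known. They are 7 of the 17541 genes in the count table, and all 7 passed the filter on low counts that left 15939 genes for testing. The tissue came from 24 C57BL/6J WT mice, each with an ID of its own in the labels, and the series title places the study in mice fed a high-fat diet. Mice of 16 weeks formed the groups Young CTRL (n = 7) and Young BAM15 (n = 6), and mice of 92 weeks formed Aged CTRL (n = 6) and Aged BAM15 (n = 5). BAM15 is a small molecule that carries protons across the inner mitochondrial membrane and so uncouples respiration from ATP synthesis. The sources used here give neither its dose, route and duration nor the sex of the mice. A mouse is named below by its group and replicate number, as in Aged CTRL 2.

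The transcription factor p53 is stabilised by DNA damage and other stress, and it then switches on genes that halt the cell cycle, restrain growth signals or lead to cell death. Cdkn1a encodes p21, which inhibits cyclin-dependent kinases and holds cells in arrest. Mdm2 encodes the ubiquitin ligase that sends p53 for degradation, so it closes a feedback loop, and Ccng1 encodes cyclin G1, which acts on Mdm2. Senescence is a lasting arrest in which cells often express Cdkn1a and Cdkn2a and secrete inflammatory factors. In obese and old fat depots senescent cells have been described among progenitors, macrophages and adipocytes.

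The promoter sequences of the genes are shown first because p53 acts through a known response element, made of a repeated decamer. RefSeq promoter windows of GRCm38.p6, from 250 bases before to 50 after a transcript start, were matched for 6 of the 7 genes. Trp53inp1 was not matched. A response element without a spacer and with at most 1 mismatch, on either strand, stood in 1 of the 2 windows of Cdkn1a and in the window of Ccng1. Such an element was found in 29 of 32851 windows of all genes (0.0883%). This search was chosen after the sequences had been seen. Below are the 250 bases before the start in these windows and in the first window of Gdf15, which held no such element, written 5′ to 3′ on the strand of the gene, with the element in capitals. The Cdkn1a window is chr17:29090729-29090978 (plus strand), that of Ccng1 is chr11:40755287-40755536 (minus strand), and that of Gdf15 is chr8:70632457-70632706 (minus strand).
Cdkn1a: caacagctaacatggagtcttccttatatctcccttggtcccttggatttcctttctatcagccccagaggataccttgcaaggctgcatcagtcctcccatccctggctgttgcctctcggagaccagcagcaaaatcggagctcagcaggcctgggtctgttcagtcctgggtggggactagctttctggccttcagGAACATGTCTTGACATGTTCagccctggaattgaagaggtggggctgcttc
Ccng1: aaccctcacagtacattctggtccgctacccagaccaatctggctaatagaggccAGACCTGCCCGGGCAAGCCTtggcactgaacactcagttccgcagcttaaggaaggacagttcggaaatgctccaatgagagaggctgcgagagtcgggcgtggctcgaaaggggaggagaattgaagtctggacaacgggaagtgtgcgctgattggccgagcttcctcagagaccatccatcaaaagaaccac
Gdf15: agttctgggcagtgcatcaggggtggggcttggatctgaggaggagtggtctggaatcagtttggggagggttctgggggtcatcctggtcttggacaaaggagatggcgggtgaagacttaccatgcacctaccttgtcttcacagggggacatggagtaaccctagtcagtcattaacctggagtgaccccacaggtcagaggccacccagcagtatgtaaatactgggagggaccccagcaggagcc

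The element of Cdkn1a runs from 51 to 32 bases before the transcript start of its first window. The second Cdkn1a window, chr17:29093519-29093818, lies downstream and held no such element. That of Ccng1 runs from 195 to 176 bases before its start. The stricter p53 full site, with no mismatch and a spacer of 0 to 13 bases, occurred in 24 windows (0.0731%), and the first Cdkn1a window was 1 of them, with a match that shares a decamer with the element in capitals. At least 1 decamer stood in 8.36% of all windows, among them the first Cdkn1a window and the windows of Mdm2 and Ccng1. The letters TATAAA occurred in 13.6% of all windows and in none of the windows of the 6 genes. These matches describe letters only.

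Library totals ran from 8.62 to 21.9 M (mega) counts. In 4 libraries the mitochondrial ribosomal transcript mt-Rnr2 was low, at 0.121 to 0.257% of counts against 0.722 to 2.26% in the other 20. They are replicates 2 and 5 of Aged BAM15, Aged CTRL 2 and Young CTRL 4. In the same libraries all mitochondrial transcripts together were high (12 to 21.4% against 4.82 to 9.27%). The adipocyte markers were present in every library, with Adipoq between 1390 and 6196 CPM (counts divided by the normalised library total in M). The summed CPM of 8 B cell markers spanned 1.39 to 1218 across libraries. Skeletal muscle actin Acta1 stood at 14063 CPM in Young CTRL 7 and at 14545 CPM in replicate 3 of Young BAM15. It was next highest in Aged CTRL 1 (5891 CPM) and Aged BAM15 1 (2169 CPM). The skin keratin Krt14 reached 840 and 90.0 CPM in Young CTRL 1 and 7.

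None of the 7 genes was called by edgeR's quasi-likelihood test in any comparison, where called means a Benjamini-Hochberg adjusted p under 0.05 over all genes tested. The share of all genes called was 0.207% for age (Aged CTRL minus Young CTRL), 0% for BAM15 in aged mice, 0% for BAM15 in young mice, 0% for the interaction, which is the BAM15 effect in aged mice less that in young mice, and 1.29% for Aged BAM15 minus Young CTRL. At an unadjusted p under 0.05 the counts were 1 of 7 for age against 8.43% of all genes, 2 of 7 for BAM15 in aged mice against 9.1%, 1 of 7 for BAM15 in young mice against 13.1%, 0 of 7 for the interaction against 5.08%, and 1 of 7 for Aged BAM15 minus Young CTRL against 16.8%. The genes concerned were Gdf15 in the first 3 comparisons and Cdkn1a in the second and the last. DESeq2 called Gdf15 with age, where it called 1.54% of the genes it tested, and Cdkn1a with BAM15 in aged mice (0.848% of genes called) and in Aged BAM15 minus Young CTRL (5.48%). It called none of the 7 for BAM15 in young mice (1.56%) or the interaction (0.218%). Another tool, limma-voom, was run with quality weights for the libraries. It called Cdkn1a with BAM15 in aged mice, where it called 6.06% of genes, and in Aged BAM15 minus Young CTRL (10.2%). None of the 7 was called by it for age (0.91%), BAM15 in young mice (3.96%) or the interaction (0%). The age comparison and each BAM15 comparison share a control group, so their values are not independent. In whole tissue, fewer cells of a type and less RNA per cell cannot be told apart.

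**Figure D1:**
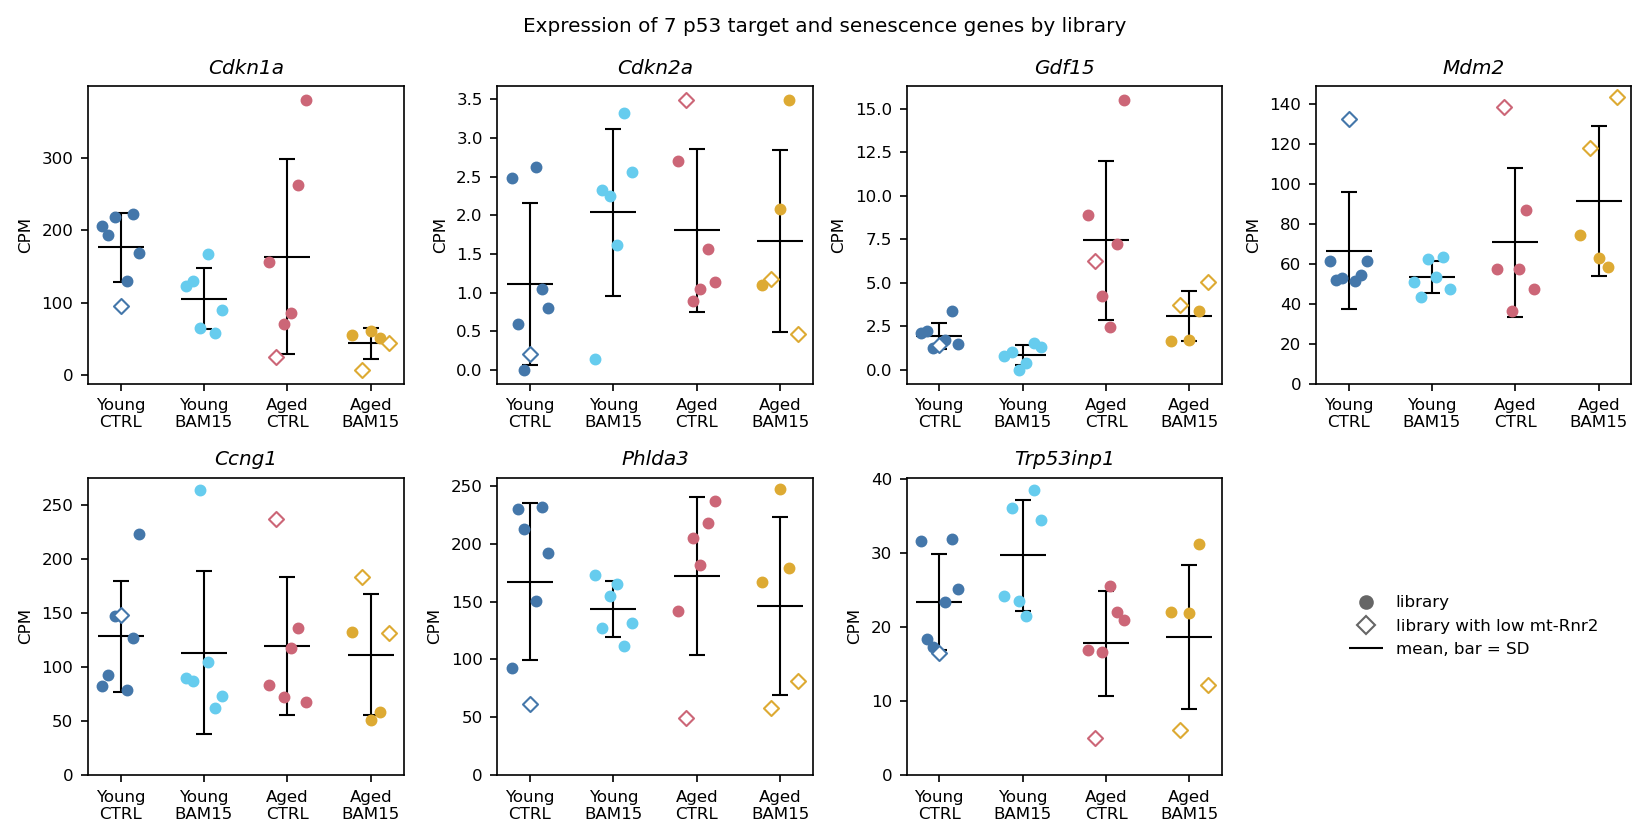
CPM of the 7 genes (vertical axes, one panel per gene) in each library of the 4 groups. Points are libraries, open diamonds are the 4 libraries with low mt-Rnr2, and the horizontal bar with whiskers is the mean ± SD; Cdkn1a lies between 7.09 and 60.5 CPM in Aged BAM15, and Gdf15 reaches 15.5 CPM in Aged CTRL.

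Cdkn1a was lowest in aged mice given BAM15. It measured 55.6, 7.09, 60.5, 51.4 and 44.6 CPM in Aged BAM15 1 to 5. In Aged CTRL it spanned 24.8 to 380 CPM with a median of 121, in Young CTRL 95.7 to 223 with a median of 194, and in Young BAM15 58.3 to 167 with a median of 106. All 5 Aged BAM15 libraries lay below the Aged CTRL mean, but the groups overlapped, because Aged CTRL 2 was at 24.8 CPM. Aged CTRL also had the widest spread, at 163 ± 135 CPM (SD, n = 6) against 43.8 ± 21.4 (SD, n = 5) in Aged BAM15, 176 ± 48.0 (SD, n = 7) in Young CTRL and 106 ± 41.9 (SD, n = 6) in Young BAM15. The gene lies on chromosome 17 from 29090976 to 29100727 (GRCm38). A gene annotated on the opposite strand overlaps it, but not within the last 5 kb where 3′ reads are expected.

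The log2 change of Cdkn1a with BAM15 in aged mice was -1.90 ± 0.53 (SE), a 3.73-fold lower level, with a 95% interval from -2.99 to -0.80. Its p was 0.00148 and its adjusted p = 0.257 by edgeR, rank 90 of 15939. By DESeq2 the adjusted p was 0.0243 and by limma-voom it was 0.0386, and over the alternatives run, other than leaving out 1 library at a time, it lay between 0.0243 and 0.762. With the 4 low mt-Rnr2 libraries left out, the change was -1.78 (adjusted p = 0.249 by edgeR). Of 10 macrophage markers 0 were called with BAM15 in aged mice, 9 had negative changes, and 4 were lower at an unadjusted p under 0.05, against 4.59% of all genes. They had summed levels of 548 to 1443 CPM in Aged BAM15 and 787 to 1975 CPM in Aged CTRL and no marker at 0 throughout a group. With the mean of these markers as a covariate the Cdkn1a change was -2.22 (adjusted p = 0.328 by edgeR).

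In young mice the change of Cdkn1a with BAM15 was -0.74 ± 0.47 (SE), with 6 of 6 libraries below the Young CTRL mean and an adjusted p = 0.512 by edgeR. It was -0.86 without the 4 libraries (adjusted p = 0.191). The interaction was -1.16 ± 0.69 (SE, adjusted p = 0.899, interval -2.58 to 0.26), so the BAM15 effects in aged and young mice were not shown to differ. With age the change was -0.11 ± 0.46 (SE, adjusted p = 0.986), with 4 of 6 Aged CTRL libraries below the Young CTRL mean.

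Against Young CTRL, Aged BAM15 mice had Cdkn1a 4.02-fold lower (log2 -2.01 ± 0.52 SE, adjusted p = 0.0542 by edgeR). The highest Aged BAM15 library, at 60.5 CPM, lay below the lowest Young CTRL library, at 95.7 CPM. Cdkn1a was the 1 gene of the 7 whose groups did not overlap in this comparison, against 1.58% of all genes. In the age comparison (0.489% of all genes) and the comparisons of BAM15 in aged (0.709%) and young mice (1.19%) this held for 0 of the 7. Leaving out 1 library at a time gave edgeR adjusted p values from 0.0343 to 0.146 over 12 fits. Only 2 of these fell under 0.05, without Aged BAM15 1 (0.0436) and without Young CTRL 4 (0.0343). Without the 4 low mt-Rnr2 libraries the change was -1.76 (adjusted p = 0.0796 by edgeR). Without Young CTRL 1 and 7 it was -1.97 (adjusted p = 0.115 by edgeR).

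**Figure D2:**
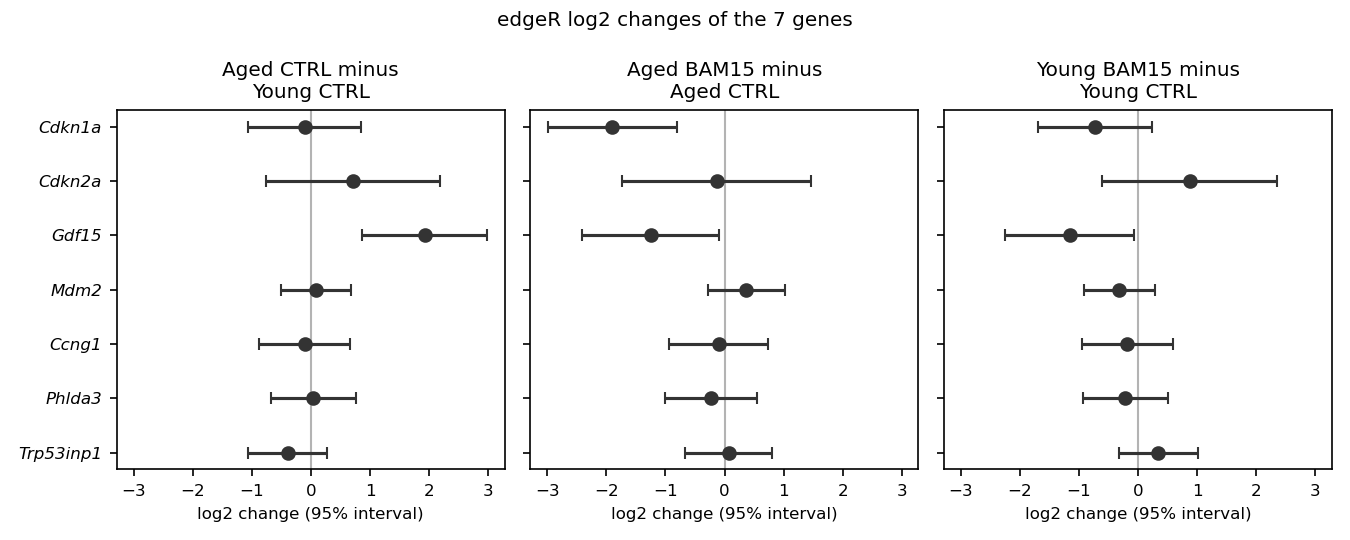
edgeR log2 changes (horizontal axes) of the 7 genes with age and with BAM15 at each age, with 95% intervals. The interval leaves out 0 for Gdf15 in all 3 panels and for Cdkn1a with BAM15 in aged mice.

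Gdf15 encodes a hormone released by stressed cells that acts on a receptor in the hindbrain to lower food intake, and it responds to p53 as well as to the integrated stress response. It was highest in old untreated mice, with a lowest value of 2.48, a median of 6.73 and a highest value of 15.5 CPM in Aged CTRL. In Aged BAM15 1 to 5 it stood at 1.69, 3.72, 1.73, 3.4 and 5.07 CPM. Young CTRL ranged from 1.26 to 3.38 CPM (median 1.72) and Young BAM15 from 0 to 1.57 CPM (median 0.927). These rest on few counts, 15 to 39 per library in Young CTRL and 0 to 17 in Young BAM15. All 6 Aged CTRL libraries lay above the Young CTRL mean of 1.95 ± 0.721 CPM (SD, n = 7), although the groups overlapped between 2.48 and 3.38 CPM. Gdf15 lies on chromosome 8 from 70629393 to 70632456.

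The age change of Gdf15 was 1.93 ± 0.51 on the log2 scale (SE), 3.80-fold, with a p of 0.000955 and an adjusted p = 0.144 by edgeR. DESeq2 gave an adjusted p of 0.003, and the alternatives other than leaving out single libraries spanned 0.003 to 0.392. Gdf15 had negative changes with BAM15 at both ages, which edgeR, DESeq2 and limma-voom did not call. The change was -1.25 ± 0.56 (SE) in aged mice, where 5 of 5 libraries lay below the Aged CTRL mean (p 0.0351, adjusted p = 0.509 by edgeR). It was -1.16 ± 0.53 (SE) in young mice, where 6 of 6 lay below the Young CTRL mean (p 0.0385, adjusted p = 0.353). Leaving out Young BAM15 3, which had 0 counts of Gdf15, gave -0.92 in young mice. The interaction was -0.09 ± 0.81 (SE, adjusted p = 0.991 by edgeR), with an interval of -1.76 to 1.58 that is too wide to say that the effects are alike. With the 4 low mt-Rnr2 libraries left out, the changes were 1.92 with age, -1.77 with BAM15 in aged mice and -1.24 in young mice. Their edgeR adjusted p values were 0.142, 0.378 and 0.219. Of 10 macrophage markers 0 were called with age, 10 had positive changes, and 5 were higher at an unadjusted p under 0.05, against 4.56% of all genes. With them as a covariate the age change of Gdf15 was 2.37 (adjusted p = 0.296 by edgeR).

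Cdkn2a encodes p16Ink4a, an inhibitor of the kinases that start the cell cycle, and from a second promoter p19Arf, which blocks Mdm2. The annotated transcripts begin in different first exons, on chromosome 4 at 89281986 to 89282192 and at 89294334 to 89294653, and share exons 2 and 3. Reads from the 3′ end therefore cannot tell which product was made. The counts were few, with 0 to 67 per library. Aged BAM15 1 to 5 measured 1.10, 1.17, 2.08, 3.5 and 0.461 CPM. Young CTRL ranged from 0 to 2.62 CPM (median 0.803), Young BAM15 from 0.148 to 3.32 (median 2.29) and Aged CTRL from 0.891 to 3.49 (median 1.35).

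No age or treatment difference in Cdkn2a exceeded this spread. The log2 change was 0.70 ± 0.71 (SE) with age, -0.13 ± 0.78 with BAM15 in aged mice and 0.87 ± 0.72 with BAM15 in young mice, with edgeR adjusted p values of 0.910, 0.981 and 0.630. All 6 Aged CTRL libraries did lie above the Young CTRL mean of log2 CPM, but the groups overlapped from 0.891 to 2.62 CPM.

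The libraries did differ in Cdkn2a with their B cell transcripts. Divided at the widest gap in the summed B cell markers, 12 libraries held 38.6 to 1218 CPM of these transcripts and 12 held 1.39 to 9.55 CPM. In Young CTRL the 2 libraries above the gap had 2.48 and 2.62 CPM of Cdkn2a, and the 5 below had 0 to 1.04. In Young BAM15 the 5 above had 1.62 to 3.32 CPM and the 1 below had 0.148. The 2 Aged CTRL libraries above the gap had 2.70 and 3.49 CPM against 0.891 to 1.56 in the 4 below, and the 3 Aged BAM15 libraries above had 1.17 to 3.5 CPM against 0.461 and 1.10. Within each of the 4 groups the libraries rich in B cell transcripts were thus the ones with more Cdkn2a, by a narrow margin in Aged BAM15. Cdkn2a was the 1 gene of the 7 for which this held, against 1.02% of all genes. The division was made after the values had been seen.

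These B cell levels were unevenly spread over the groups, with 2 of 7 Young CTRL libraries above the gap, 5 of 6 Young BAM15, 2 of 6 Aged CTRL and 3 of 5 Aged BAM15. With the mean of the B cell markers as a covariate, the change of Cdkn2a with BAM15 in young mice moved from 0.87 to -0.61 (adjusted p = 1.00 by edgeR). T cell markers went the same way as the B cell markers, at 6.74 to 505 CPM summed in Young BAM15 while Young CTRL held 10.7 to 184 CPM. Which cells carried Cdkn2a was not tested. Over all 24 libraries the genes with the most similar log2 CPM to Cdkn2a, among those with a mean of at least 5 CPM, were Pou2af1, a coactivator of B cells (Pearson r 0.86), the chemokine gene Ccl22 (0.84) and the B cell lectin gene Cd22 (0.84).

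**Figure D3:**
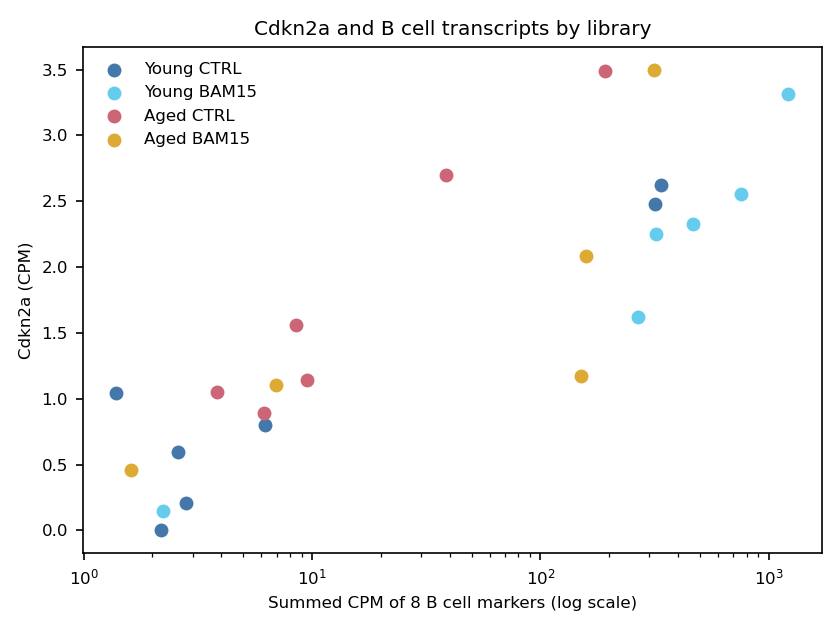
Cdkn2a in CPM (vertical axis) against the summed CPM of 8 B cell markers (horizontal axis, log scale), 1 point per library, coloured by group. The 12 libraries at 38.6 CPM of B cell markers or more have 1.17 to 3.5 CPM of Cdkn2a, and the 12 at 9.55 CPM or less have 0 to 1.56.

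Mdm2 and Ccng1, the genes of the feedback on p53, had small changes that missed the test in every comparison. Mdm2 lies on chromosome 10 from 117688875 to 117710758 and Ccng1 on chromosome 11 from 40748552 to 40755311. Mdm2 measured 74.5, 118, 62.6, 58.5 and 143 CPM in Aged BAM15 1 to 5. It spanned 36.4 to 138 CPM in Aged CTRL (median 57.3), 51.1 to 133 in Young CTRL (median 54.5) and 43.3 to 63.4 in Young BAM15 (median 52.1). The values of 118 CPM and above all belong to the 4 libraries with low mt-Rnr2. Its log2 changes were 0.09 ± 0.29 (SE) with age, 0.37 ± 0.32 with BAM15 in aged mice and -0.32 ± 0.29 in young mice, with edgeR adjusted p values of 0.984, 0.770 and 0.678.

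Ccng1 measured 132, 184, 50.6, 58.6 and 132 CPM in Aged BAM15 1 to 5, with replicates 3 and 4 well below the others. Aged CTRL spanned 67.4 to 237 CPM (median 101), Young CTRL 78.5 to 223 (median 127) and Young BAM15 62.0 to 264 (median 88.5). The highest young values were those of Young CTRL 7 and Young BAM15 3, the libraries with the most muscle actin. Among aged mice this did not hold. Aged CTRL 1, with 5891 CPM of Acta1, had 83.3 CPM of Ccng1, and Aged CTRL 2, with 12.2 CPM of Acta1, had 237. Its log2 changes were -0.11 ± 0.37 (SE) with age, -0.10 ± 0.41 with BAM15 in aged mice and -0.18 ± 0.37 in young mice, with edgeR adjusted p values of 0.985, 0.966 and 0.887. The intervals reach from -0.94 to 0.74 in aged mice, so changes of a size like that of Cdkn1a lie outside them.

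Phlda3, a p53 target whose product keeps the kinase Akt from the membrane, lies on chromosome 1 from 135766119 to 135769136. It measured 167, 58.1, 248, 179 and 81.6 CPM in Aged BAM15 1 to 5. Aged CTRL spanned 49.6 to 237 CPM (median 193), Young CTRL 61.6 to 232 (median 192) and Young BAM15 112 to 173 (median 143). The groups overlapped throughout, with log2 changes of 0.04 ± 0.35 (SE) with age, -0.23 ± 0.38 with BAM15 in aged mice and -0.22 ± 0.35 in young mice. The edgeR adjusted p values were 0.995, 0.893 and 0.840.

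Trp53inp1 encodes a stress protein that assists p53 and takes part in autophagy, and it lies on chromosome 4 from 11156431 to 11174379. Aged BAM15 1 to 5 had 22.0, 6.13, 22.0, 31.2 and 12.1 CPM. Aged CTRL spanned 5.00 to 25.5 CPM (median 18.9), Young CTRL 16.5 to 31.8 (median 23.3) and Young BAM15 21.4 to 38.5 (median 29.3). Its changes were -0.40 ± 0.33 (SE) with age, 0.07 ± 0.35 with BAM15 in aged mice and 0.34 ± 0.32 in young mice, with edgeR adjusted p values of 0.858, 0.976 and 0.689.

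For Mdm2, Phlda3 and Trp53inp1 the 4 libraries with low mt-Rnr2 stood apart from the other 20. In them Mdm2 was high, at 118 to 143 CPM against 36.4 to 87.0. Phlda3 was low, at 49.6 to 81.6 CPM against 92.4 to 248, and so was Trp53inp1, at 5.00 to 16.5 CPM against 16.7 to 38.5. Such a lack of overlap held for 3 of the 7 genes, against 15.7% of all genes. Cdkn1a overlapped, with 7.09 to 95.7 CPM in the 4 and 51.4 to 380 CPM in the 20. The 4 libraries come from 3 of the 4 groups, and what sets them apart was not tested. Without them the changes of Mdm2, Phlda3 and Trp53inp1 lay between -0.38 and 0.30 with age and with BAM15 at each age.

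**Figure D4:**
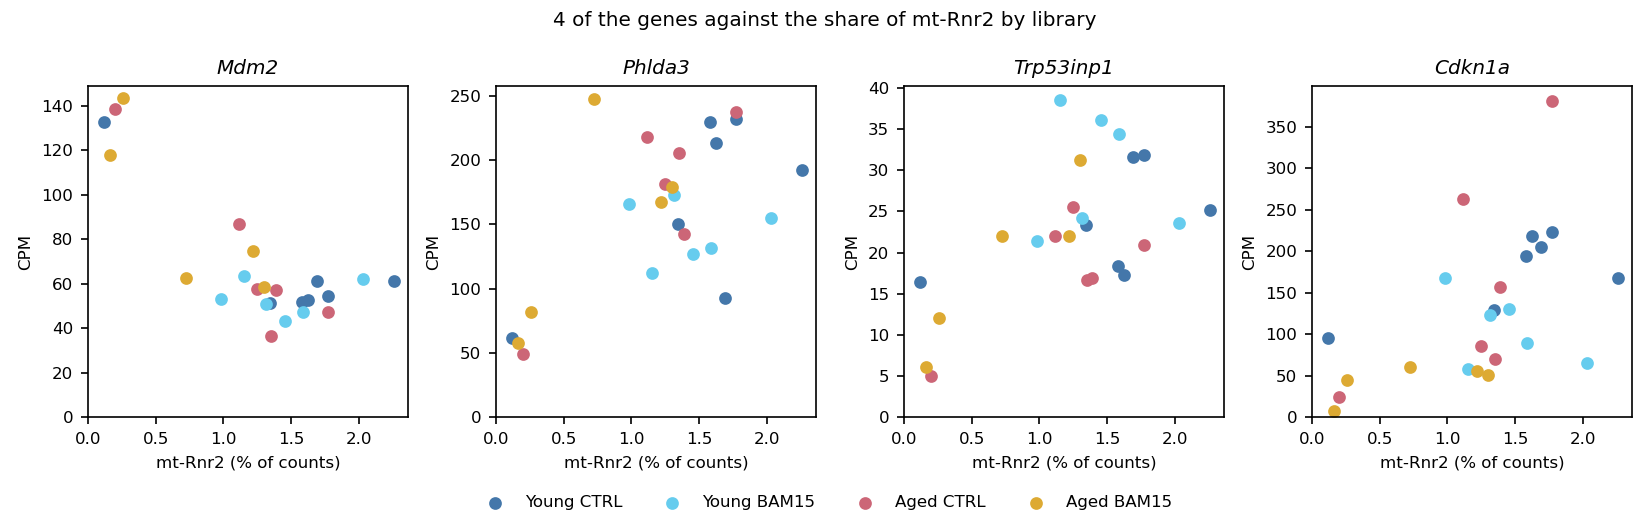
CPM of Mdm2, Phlda3, Trp53inp1 and Cdkn1a (vertical axes) against the share of counts from mt-Rnr2 in percent (horizontal axes), 1 point per library, coloured by group. The 4 libraries at or below 0.257% hold the highest Mdm2 values and the lowest values of Phlda3 and Trp53inp1.

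From mouse to mouse, no pair of the genes had a correlation that passed the test without the 4 libraries. Correlations of log2 CPM, after the group means were subtracted, were computed for the 21 pairs with permutation p values adjusted over the pairs. Because the 4 libraries form a cluster of their own, the values are those over the other 20. There 0 of 21 pairs passed at an adjusted p under 0.05 for either Pearson's r or Spearman's rho, and 10 of 21 had a positive r. The smallest permutation p for r was that of Gdf15 with Ccng1, a negative pair at r -0.67 and rho -0.50. Its permutation p was 0.00549 and 0.0320 (adjusted p 0.115 and 0.168), and r was -0.44 without the 2 libraries farthest from the median of Gdf15. The pair of Mdm2 and Ccng1 had r 0.49 and rho 0.43 (permutation p 0.0148 and 0.0725, adjusted p 0.155 and 0.219), and r 0.49 without the 2 libraries farthest from the median of Mdm2. Cdkn1a and Phlda3 had r 0.29 and rho 0.43 (permutation p 0.155 and 0.0458, adjusted p 0.406 and 0.192), and r 0.22 without the 2 farthest libraries. With all 24 libraries 7 pairs passed for r and 3 for both. Of these 3, Mdm2 with Ccng1 (r 0.63) and Cdkn1a with Phlda3 (r 0.72) were positive, and Mdm2 with Phlda3 was negative (r -0.79). The count without the 4 libraries also has fewer libraries.

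By mean log2 CPM, Cdkn1a and Ccng1 shared 1 order of groups, from Young CTRL over Aged CTRL and Young BAM15 down to Aged BAM15. Gdf15 ran from Aged CTRL over Aged BAM15 and Young CTRL to Young BAM15, and Mdm2 from Aged BAM15 over Aged CTRL and Young CTRL to Young BAM15. Phlda3 ran from Aged CTRL over Young CTRL and Young BAM15 to Aged BAM15. Trp53inp1 and Cdkn2a were highest in Young BAM15, and lowest in Aged CTRL and Young CTRL respectively. The ranges of neighbouring groups overlapped for all 7 genes. The difference between neighbours was larger than the pooled SD in 3 cases: Young BAM15 above Aged BAM15 for Cdkn1a (1.48 against an SD of 0.996), Aged CTRL above Aged BAM15 for Gdf15 (1.12 against 0.883) and Young CTRL above Young BAM15 for Gdf15 (1.36 against 0.883). For Mdm2, Ccng1, Phlda3, Trp53inp1 and Cdkn2a no neighbours differed by more than their pooled SD.

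The genes with the most similar profile over the 24 libraries differed from member to member. They were Ubqln1 (r 0.84), Gtf2ird1 (0.84) and H4c8 (0.83) for Cdkn1a, and Uhrf1bp1l (0.82), Dusp9 (0.81) and the tissue factor gene F3 (0.78) for Gdf15. They were Lrpprc (0.93), mt-Nd4 (0.92) and Hmgn1 (0.92) for Mdm2, and Park7 (0.89), Mrpl42 (0.89) and Mfn2 (0.88) for Ccng1. Phlda3 was most like Plpp3 (0.94), Wwc2 (0.92) and Tmem120b (0.92), and Trp53inp1 most like Sf3b1 (0.96), Mbtd1 (0.93) and Mdn1 (0.93). Over the 20 libraries without low mt-Rnr2 these values were 0.74 for Ubqln1, 0.78 for Lrpprc, 0.79 for Plpp3 and 0.79 for Sf3b1, and stood at 0.84 for Uhrf1bp1l, 0.89 for Park7 and 0.86 for Pou2af1. The libraries share depth and composition in these values, which are given as a description.

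Trp53, the gene of p53 itself, was measured at 6.77 ± 2.52 CPM (SD, n = 7) for Young CTRL, 10.3 ± 6.41 (SD, n = 6) for Young BAM15, 6.85 ± 5.16 (SD, n = 6) for Aged CTRL and 5.35 ± 4.27 (SD, n = 5) for Aged BAM15. Its log2 changes were 0.02 ± 0.73 (SE) with age, -0.36 ± 0.80 with BAM15 in aged mice and 0.60 ± 0.73 in young mice (edgeR adjusted p 1.00, 0.932 and 0.769). p53 is mostly regulated through the stability of the protein, which was not measured. Of 15 tested genes of p53 and its regulators, 0 were called in these 3 comparisons, and the median change was -0.14, 0.12 and 0.19, against medians over all genes of -0.04, 0.02 and 0.03. Trp63, a p53 relative of skin, had an age change of -2.59 ± 0.89 (SE), which was -0.18 without Young CTRL 1 and 7, the libraries with skin keratin.

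Other p53 targets for arrest, repair and metabolism also gave 0 calls among 20 genes in each of the 3 comparisons. With age 0 of 20 had an unadjusted p under 0.05, against 4.56% higher and 3.86% lower over all genes. With BAM15 in aged mice 4 of 20 were lower and 0 higher, against 4.59% and 4.5% over all genes, and the median change was -0.33. They included Sesn2, a stress sensor that restrains growth signalling (-0.90 ± 0.27 SE), and Ephx1, an epoxide hydrolase (-0.72 ± 0.25 SE). Sesn2 stood at 9.49 ± 2.36 CPM (SD, n = 5) for Aged BAM15 and 17.7 ± 8.01 CPM (SD, n = 6) for Aged CTRL. Again 4 of 20 were lower when the 4 libraries were left out, with a median of -0.31 against 0.02 over all genes. The share of all genes in that fit is not given. In young mice 3 of 20 were lower and 0 higher, against 6.88% and 6.18% of all genes. Of 12 p53 targets for cell death 0 were called. At an unadjusted p under 0.05, 0 were higher and 2 lower with age, 1 higher and 0 lower with BAM15 in aged mice, and 0 higher and 2 lower in young mice. The 1 higher was Siva1, which promotes apoptosis (0.98 ± 0.42 SE, adjusted p = 0.492 by edgeR). The largest change among them was that of Perp, a desmosome gene of skin, at -5.94 ± 1.47 (SE) with age, and it was -0.34 without Young CTRL 1 and 7.

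Other inhibitors of the cell cycle had changes of either sign. Of 17 genes of cyclin-dependent kinase inhibitors, their kinases and the RB family, 0 were called in the 3 comparisons. With BAM15 in aged mice 4 of 17 had an unadjusted p under 0.05 and were higher, against 4.5% of all genes. Without the 4 libraries this held for 2 of 17, and the share of all genes in that fit is not given. In young mice 2 were higher and 3 lower, against 6.18% and 6.88%. Cdkn1b, the gene of p27, stood at 61.7 ± 20.8 CPM (SD, n = 5) for Aged BAM15 and 29.4 ± 10.6 CPM (SD, n = 6) for Aged CTRL, a change of 1.07 ± 0.31 (SE, adjusted p = 0.269 by edgeR). Cdkn1c, the gene of p57, had a change of 0.86 ± 0.31 (SE, adjusted p = 0.397) and was called in Aged BAM15 minus Young CTRL, where it rose by 1.20 ± 0.29 (SE, adjusted p = 0.0429). That call was lost without the 4 libraries (1.09, adjusted p = 0.122 by edgeR) and without Young CTRL 1 and 7 (1.28, adjusted p = 0.0789). Cdkn2c, the gene of p18, had an age change of -1.05 ± 0.29 (SE, adjusted p = 0.154 by edgeR), from 101 ± 27.2 CPM (SD, n = 7) for Young CTRL to 48.6 ± 25.6 CPM (SD, n = 6) for Aged CTRL.

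Of 25 factors that senescent cells secrete 22 were tested and 0 called with age or with BAM15 at either age. The changes were positive for 16 of 22 with age and negative for 16 of 22 with BAM15 in aged mice, comparisons that share Aged CTRL. At an unadjusted p under 0.05, 5 were higher and 1 lower with age (median change 0.63), against 4.56% and 3.86% of all genes. With BAM15 in aged mice 0 were higher and 6 lower (median -0.65), against 4.5% and 4.59%. In young mice 1 was higher and 6 lower (median -0.27), against 6.18% and 6.88%. Igfbp3, which binds insulin-like growth factors, had an age change of 1.83 ± 0.50 (SE, adjusted p = 0.156 by edgeR). Mmp12, the macrophage elastase, measured 4.17 ± 5.40 CPM (SD, n = 5) for Aged BAM15 and 61.9 ± 31.7 CPM (SD, n = 6) for Aged CTRL, a change of -3.89 ± 0.71 (SE, adjusted p = 0.105), and the chemokine gene Ccl2 had a change of -1.66 ± 0.67 (SE, adjusted p = 0.458).

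Without the 4 libraries 1 of 23 secreted factors was called, higher with age, where 79 of all genes were called. At an unadjusted p under 0.05, 6 were then higher and 1 lower with age, and 0 higher and 3 lower with BAM15 in aged mice. The medians were 0.41 and -0.45, against -0.04 and 0.02 over all genes. The share of all genes at this p without the 4 libraries is not given, so these counts have no background beside them. Markers of lipid-associated macrophages, a list that also holds Mmp12, had 8 of 12 lower with BAM15 in aged mice at an unadjusted p under 0.05, against 4.59% of all genes. In young mice 7 of 12 were lower, against 6.88%. With age 6 of 12 were higher, against 4.56%, and 1 was called, against 0.207% of all genes. The part of these markers in the secreted factors was not tested. Of 6 markers of nuclear loss and lysosomes 0 were called. Lmnb1, the lamin that senescent cells lose, had an age change of -1.10 ± 0.36 (SE, adjusted p = 0.265), at 11.4 ± 5.34 CPM (SD, n = 6) for Aged CTRL and 24.4 ± 8.37 CPM (SD, n = 7) for Young CTRL.

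Cell cycle genes gave 0 calls among 22 in the 3 comparisons and had mostly negative changes. These were 20 of 22 with age (median -0.49) and 20 of 22 with BAM15 in aged mice (median -0.41). In young mice 18 of 22 were negative (median -0.24). The medians over all genes were -0.04, 0.02 and 0.03. At an unadjusted p under 0.05, 3, 4 and 1 were lower, against 3.86%, 4.59% and 6.88% of all genes, and 0, 0 and 1 higher. In Aged BAM15 minus Young CTRL 1 was called, lower, against 1.29% of all genes, and 0 without the 4 libraries. There 12 of 22 were lower at an unadjusted p under 0.05 (median -1.17), against 7.85%. Mki67, the proliferation marker, had an age change of -1.62 ± 0.45 (SE, adjusted p = 0.160), and without the 4 libraries it fell by 1.52 (adjusted p = 0.0394 by edgeR). Cdk1, the kinase of mitosis, had a change of -1.13 ± 0.30 (SE, adjusted p = 0.250) with BAM15 in aged mice and of -1.35 ± 0.28 (SE, adjusted p = 0.179) in young mice. Cdk1 and Cdkn1a, whose products drive and halt division, thus both had negative changes with BAM15 that edgeR did not call.

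The integrated stress response, the other known route to Gdf15, gave 0 calls among 14 genes. Its median change was 0.32 with age, -0.37 with BAM15 in aged mice and -0.08 with BAM15 in young mice. At an unadjusted p under 0.05, 2 of 14 were higher and 1 lower with age, against 4.56% and 3.86% of all genes. With BAM15 in aged mice 0 were higher and 1 lower, against 4.5% and 4.59%. In young mice 0 were higher and 3 lower, against 6.18% and 6.88%. Atf3, a stress transcription factor, measured 4.86 ± 2.96 CPM (SD, n = 5) for Aged BAM15 and 16.0 ± 5.83 CPM (SD, n = 6) for Aged CTRL, a change of -1.71 ± 0.47 (SE, adjusted p = 0.257 by edgeR). Trib3, a pseudokinase induced by this response, had an age change of 0.71 ± 0.25 (SE, adjusted p = 0.333) and the hormone gene Fgf21 one of 2.34 ± 1.06 (SE, adjusted p = 0.540). Fgf21 was near the floor, at 0.298 ± 0.321 CPM (SD, n = 7) for Young CTRL and 1.57 ± 1.67 CPM (SD, n = 6) for Aged CTRL. Of 10 glucocorticoid response genes 3 were called and rose with age, against 0.207% of all genes called: Mt2 (2.47 ± 0.43 SE), Mt1 (1.89 ± 0.34 SE) and Per1 (1.28 ± 0.25 SE). Without Young CTRL 1 and 7, where 4 genes in all were called, 0 of the 10 were. With the 4 low mt-Rnr2 libraries left out, 4 of 10 were, among 79 of all genes.

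**Figure D5:**
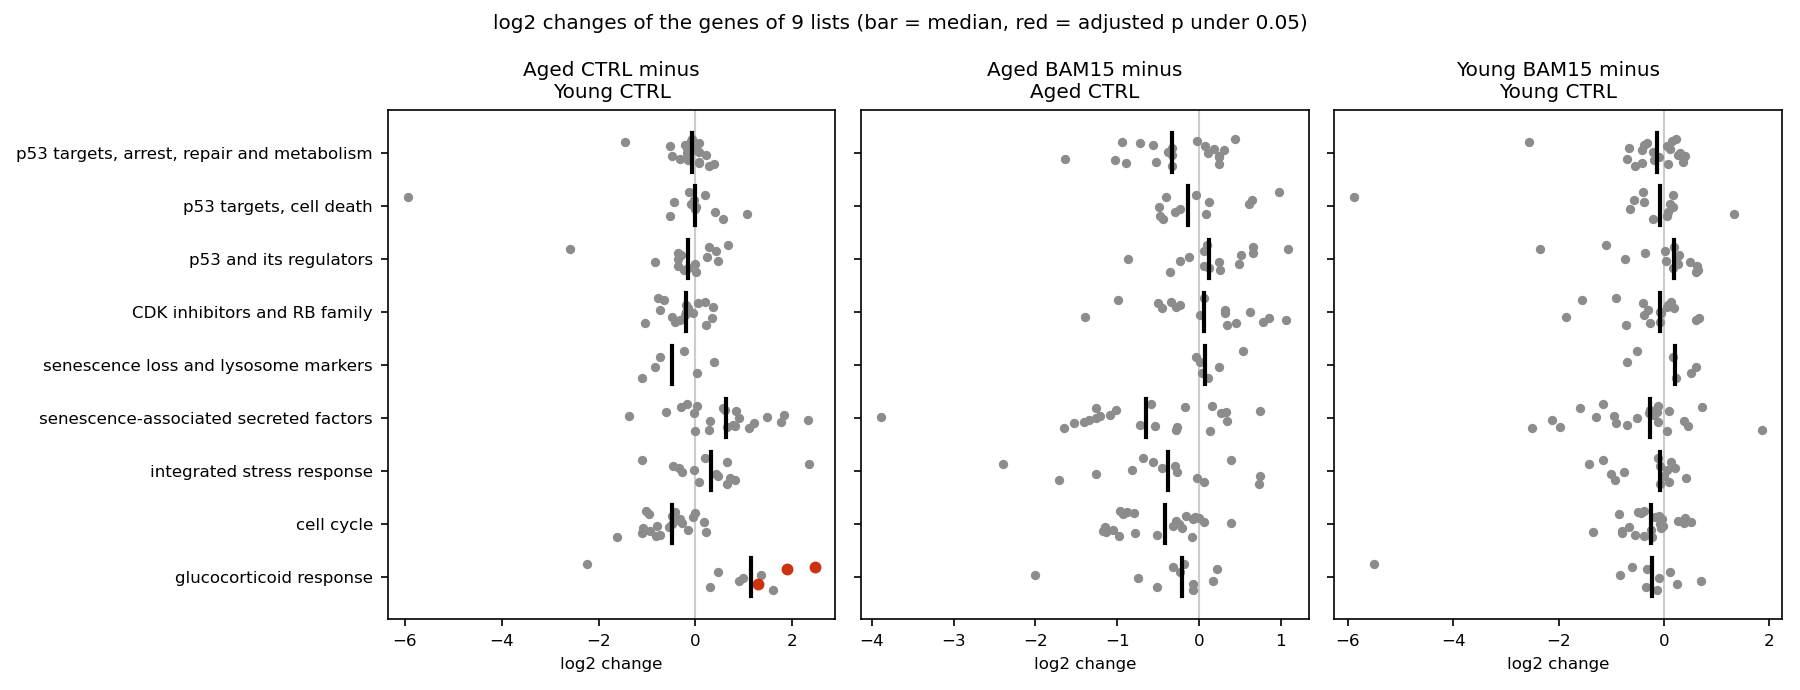
edgeR log2 changes (horizontal axes) of the tested genes of 9 lists (rows) with age and with BAM15 at each age, 1 point per gene, with the list median as a black bar and genes at an adjusted p under 0.05 in red. Only 3 glucocorticoid response genes in the age panel are red, and the median of the secreted factors is 0.63 with age and -0.65 with BAM15 in aged mice.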

How the data were processed

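RNA of inguinal white adipose tissue was sequenced with Lexogen QuantSeq, which reads the 3′ end of transcripts, per the labels' protocols. Deposited by the authors were raw count values of 24 libraries by Ensembl gene, with a second table of signal values that equal those counts divided by 1 size factor per library (largest deviation 6.52e-09 counts) and served only for gene symbols. The submitters' processing notes name R 3.4.3, DESeq2 1.18.1 with GRCm38 as build. Which aligner, counter and strand setting were used is not stated in the sources used here. Each gene in the count table has at least 72 counts in all.

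Counts were normalised with TMM factors and filtered with filterByExpr, which removed 1602 genes. A robust quasi-likelihood model of edgeR 4.0.16 (R 4.3.3) with group as its term took in all 24 libraries (20 residual degrees of freedom, common biological coefficient of variation 0.621). Each SE was derived from the log2 change and its F statistic. CPM uses the normalised library totals, and log2 CPM a prior count of 2. Permutation p values for pairs of genes, two-sided, used 100000 resamples within groups. The fit was tested on simulated counts. The alternatives were DESeq2 1.42.0, limma-voom 3.58.1 with quality weights for the libraries, and other scalings and filters. Covariates, a replicate block and fits without single or doubted libraries were further alternatives. A term for the libraries with low mt-Rnr2 was added after the data were seen. Gene positions are from GENCODE on GRCm38 and promoters from RefSeq on GRCm38.p6.

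The 7 genes, the 9 pathway lists and the 13 marker lists were chosen with earlier results of these data known. The text names the 7 genes, Trp53, the 3 genes most similar in profile to each, and of each list the 2 genes with the smallest p in the age and the aged BAM15 comparisons plus any called, of which a selection made with their values known is printed. A gene that this rule names is not reported here.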

Additional observations from a re-analysis of the deposited data

Results flagged for a closer look

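Of 28 sets of a gene in a group, 6 held a library whose gap to its nearest neighbour, over the range of the group, passed Dixon's critical value; chance alone would mark about 1 set in 20. Values are log2 CPM. Aged BAM15 2 had the lowest Cdkn1a of its group (2.86), and it is a library with low mt-Rnr2. Young BAM15 1, the only library of its group with few B cell transcripts, had the lowest Cdkn2a (-1.77). Young CTRL 4 had the highest Mdm2 (7.05), and Aged CTRL 2 the lowest Phlda3 (5.64) and Trp53inp1 (2.36). Both are libraries with low mt-Rnr2. Young BAM15 3, with 14545 CPM of Acta1, had the highest Ccng1 (8.05). Whether these features of the libraries account for the values was not tested.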

How the results depend on the processing

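The signs of the Cdkn1a change with BAM15 in aged mice and of the Gdf15 change with age held under all alternatives run; small changes of other genes often changed sign, and the causes were not tested. The values recomputed were changes of single genes and counts of genes or pairs that passed. Of these values, 707 kept their sign and side of the threshold, or their count, and 47 changed sign. Another 14 were new calls or higher counts, and 1 was a lower count, that of the pairs. A new call of a gene also raised a count, so the 14 are not separate calls. None of the 7 genes was called by edgeR with all 24 libraries, so none could lose a call. With DESeq2, 1 gene was called in each of 3 comparisons: Gdf15 with age (1.94) and Cdkn1a with BAM15 in aged mice (-1.91) and in Aged BAM15 minus Young CTRL (-2.01). limma-voom called 1 gene, Cdkn1a, in the last 2 (-1.36 and -1.73), and gave Cdkn2a 0.66 and Phlda3 0.046 with BAM15 in aged mice and Mdm2 -0.052 with age. Without the 4 libraries with low mt-Rnr2, 0 pairs of genes passed instead of 7, and the changes were 0.018 for Cdkn1a with age, and 0.59 for Cdkn2a and 0.0070 for Phlda3 with BAM15 in aged mice. A term for these libraries gave Phlda3 0.12 there. The macrophage covariate gave 0.45 for Ccng1 and -0.46 for Trp53inp1 with BAM15 in aged mice, and with age 0.27 for Cdkn1a, -0.40 for Mdm2 and 0.22 for Trp53inp1. The B cell covariate gave Cdkn2a -0.61 and Phlda3 0.058 in young mice and Trp53inp1 -0.0068 in aged mice. Without Young CTRL 1 and 7, Ccng1 was at 0.0057 and Phlda3 at -0.041 with age.

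With the replicate block the changes were 0.0051 for Ccng1 and -0.010 for Mdm2 with age, 0.10 for Cdkn2a with BAM15 in aged mice and 0.47 for the Gdf15 interaction, and 0 of the 7 genes were called. Deviations from the group means were not more alike in same-numbered libraries (median r -0.044 over 33 pairs, 0.004 over 182 others). Whether these libraries share more than a number was not tested. The block called 5 genes of all with age and 17 in Aged BAM15 minus Young CTRL, against 33 and 205.

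Leaving out 1 library at a time gave, with age, -0.43 to 0.081 for Ccng1, -0.55 to 0.12 for Cdkn1a, -0.22 to 0.35 for Mdm2 and -0.10 to 0.23 for Phlda3. With BAM15 in aged mice it gave -0.36 to 0.22 for Ccng1, -0.58 to 0.17 for Cdkn2a and -0.19 to 0.28 for Trp53inp1, in young mice -0.63 to 0.0090 for Ccng1, and -0.34 to 0.26 for the Gdf15 interaction. In Aged BAM15 minus Young CTRL, Cdkn1a ranged from -2.15 to -1.74, with 0 to 1 genes called.

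The count of all genes called with age, 33, was 269 by DESeq2, 145 by limma-voom, 79 without the 4 libraries, 91 with a term for them, 4 without Young CTRL 1 and 7, 2 with the macrophage covariate and 18 with only the groups compared. The interaction needs all 4 groups and was not run on fewer. Depth limits Cdkn2a, at 0 to 67 counts per library, and Gdf15 in young mice, at 0 to 17 counts in Young BAM15 and 15 to 39 in Young CTRL.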
